A study of Mus musculus with 9 samples.

Results

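Genes that mark adult neurogenesis and dividing cells were followed in hippocampal RNA of lupus-prone and control mice. The genes are Eomes, Neurod1, Dcx, Sox11, Igfbpl1, Draxin, Mki67, Top2a and Cdk1, taken as a list by symbol, so that 9 of the 47643 genes in the deposited matrix are described. The labels and the design text name 3 groups of mice at 6 weeks of age, with 3 libraries each: MRL/mpj mice as controls, MRL/lpr mice, and MRL/lpr mice treated with mesenchymal stem cells, or MSC (MRL/lpr+MSC). In MRL/lpr mice the death receptor Fas is disrupted by the lpr mutation on the MRL background, and lupus develops spontaneously. The mutation is in all cells of the mouse, lymphocytes included, so that a difference from MRL/mpj is not limited to brain cells. The dose, route and time of the cell treatment are not given in the sources used here. The strain field of the labels reads C57BL/6 for all 9 libraries, against the MRL names in the design text, and the groups were taken from the sample titles.

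Identity checks limited what the group names can carry. In a table that accompanies the study, 3 columns named MRL/lpr held, in 100% of the compared genes, values in a constant ratio (within 1%) to libraries labelled MRL/lpr+MSC, and in at most 5.55% to a library labelled MRL/lpr. Fas levels did not separate the groups, with 0.916 to 1.11 FPKM in MRL/mpj, 0.734 to 1.25 FPKM in MRL/lpr and 0.552 to 1.01 FPKM in MRL/lpr+MSC libraries. Whether the names of these 2 groups are exchanged cannot be told from the files, and MRL/lpr and MRL/lpr+MSC below mean the libraries labelled so. Library totals ran from 19475804 to 26912031 counts, and 3 counts equalled 0.105 to 0.163 CPM (counts scaled to library size after TMM normalization, the scale of all CPM values here). Markers of the hippocampus were present: the summed level of 7 dentate granule cell markers lay between 327 and 783 CPM, and that of 5 CA pyramidal neuron markers between 713 and 1299 CPM, with no marker of either list at 0 in any group.

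In the adult hippocampus, new granule neurons arise from radial glia-like stem cells that line the inner border of the dentate granule cell layer. Their daughters pass through a dividing intermediate progenitor, which expresses the T-box factor Eomes (Tbr2), and a neuroblast, in which Neurod1 drives neuronal differentiation. Immature neurons then express doublecortin (Dcx), a microtubule-binding protein of migrating cells, together with the SoxC factor Sox11. Igfbpl1, a secreted protein related to the insulin-like growth factor binding proteins, and Draxin, a secreted axon guidance and Wnt-inhibiting protein, are also found in immature granule neurons. Mki67, Top2a and Cdk1 encode the Ki-67 antigen, DNA topoisomerase II alpha and the kinase that drives entry into mitosis, and are made in dividing cells of any type. None of the 9 genes is limited to the dentate gyrus: Eomes, for example, is also made by cytotoxic lymphocytes and by some projection neurons elsewhere in the brain.

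The promoters below are shown because cell cycle genes that peak in mitosis share short promoter elements. The CHR element (TTTGAA or TTCGAA) is bound by the MuvB complex, and the CCAAT box (CCAAT) by NF-Y. Both were searched on both strands in RefSeq promoters of GRCm38.p6, each running from 250 bases before to 50 bases after the start of the gene, and capitals mark every match. The 3 genes of dividing cells come first, followed by Sox11, the gene that passed the test of MRL/lpr against MRL/mpj, and Eomes, which varied most between libraries.
Mki67 promoter, chr7:135716330-135716629 (-): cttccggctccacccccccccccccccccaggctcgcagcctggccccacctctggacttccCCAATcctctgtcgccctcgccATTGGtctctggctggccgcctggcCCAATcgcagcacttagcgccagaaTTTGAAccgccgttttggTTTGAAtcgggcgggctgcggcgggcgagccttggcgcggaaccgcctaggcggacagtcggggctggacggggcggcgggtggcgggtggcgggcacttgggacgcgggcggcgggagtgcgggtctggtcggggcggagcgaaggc
Top2a promoter, chr11:99024140-99024439 (-): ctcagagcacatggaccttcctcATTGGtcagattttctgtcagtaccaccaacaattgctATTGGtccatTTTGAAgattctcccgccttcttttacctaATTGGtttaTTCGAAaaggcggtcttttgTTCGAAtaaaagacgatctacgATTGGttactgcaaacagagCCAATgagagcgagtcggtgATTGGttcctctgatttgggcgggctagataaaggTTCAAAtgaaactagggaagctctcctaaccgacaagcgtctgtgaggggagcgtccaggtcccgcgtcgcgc
Cdk1 promoter, chr10:69352863-69353162 (-): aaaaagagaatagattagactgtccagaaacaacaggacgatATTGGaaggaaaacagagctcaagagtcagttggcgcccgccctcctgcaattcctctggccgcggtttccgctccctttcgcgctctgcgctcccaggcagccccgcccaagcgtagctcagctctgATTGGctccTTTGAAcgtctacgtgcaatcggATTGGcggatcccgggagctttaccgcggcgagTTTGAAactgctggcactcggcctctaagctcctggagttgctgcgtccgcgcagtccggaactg
Sox11 promoter, chr12:27342669-27342968 (-): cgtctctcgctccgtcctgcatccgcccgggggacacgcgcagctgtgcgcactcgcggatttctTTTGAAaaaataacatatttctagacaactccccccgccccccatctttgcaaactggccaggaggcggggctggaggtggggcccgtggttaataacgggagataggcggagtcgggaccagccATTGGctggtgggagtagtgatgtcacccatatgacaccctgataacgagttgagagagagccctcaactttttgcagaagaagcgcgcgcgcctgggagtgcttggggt
Eomes promoter, chr9:118477939-118478238 (+): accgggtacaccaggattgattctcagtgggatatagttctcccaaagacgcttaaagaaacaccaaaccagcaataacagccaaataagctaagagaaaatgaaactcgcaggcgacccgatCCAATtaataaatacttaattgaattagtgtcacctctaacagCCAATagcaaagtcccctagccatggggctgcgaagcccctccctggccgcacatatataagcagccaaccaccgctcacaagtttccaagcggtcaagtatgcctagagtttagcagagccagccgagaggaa

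CHR matches numbered 2 in the Mki67 promoter, 4 in Top2a and 2 in Cdk1, and CCAAT matches 3, 6 and 3, with no overlap between the elements. Sox11 held 1 of each, and Eomes held 2 CCAAT matches and no CHR match. Of 32851 promoters in the table, 19.2% held a CHR match, 37.4% a CCAAT match and 7.52% both. Of the 9 genes, 8 had a promoter in the table (all but Igfbpl1), and 4 of these held both elements: Mki67, Top2a, Cdk1 and Sox11. In a list of 25 genes of G2 and mitosis, 20 had a promoter in the table and 14 held both elements. A match describes letters in these windows and does not show binding.

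Levels between genes were compared per length, as FPKM. In MRL/mpj libraries, Neurod1 was the most abundant of the 9 transcripts (6.07 ± 0.855 FPKM, SD, n = 3), followed by Sox11 (2.42 ± 0.462). Igfbpl1 (1.14 ± 0.113) and Dcx (1.11 ± 0.147) did not differ beyond their spread. Mki67 (0.416 ± 0.0314) lay above Top2a (0.344 ± 0.0193). Top2a, Draxin (0.321 ± 0.0564), Eomes (0.265 ± 0.0733) and Cdk1 (0.179 ± 0.0962) followed in this order, and each overlapped its neighbour in range. In some libraries few reads were counted, down to 6 for Cdk1 (MRL/lpr+MSC 3) and 12 for Eomes (MRL/lpr+MSC 1). Mki67 held 68 to 228 counts and Top2a 44 to 148 counts. In whole tissue, fewer cells of a type and less RNA per cell cannot be told apart.

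**Figure D1:**
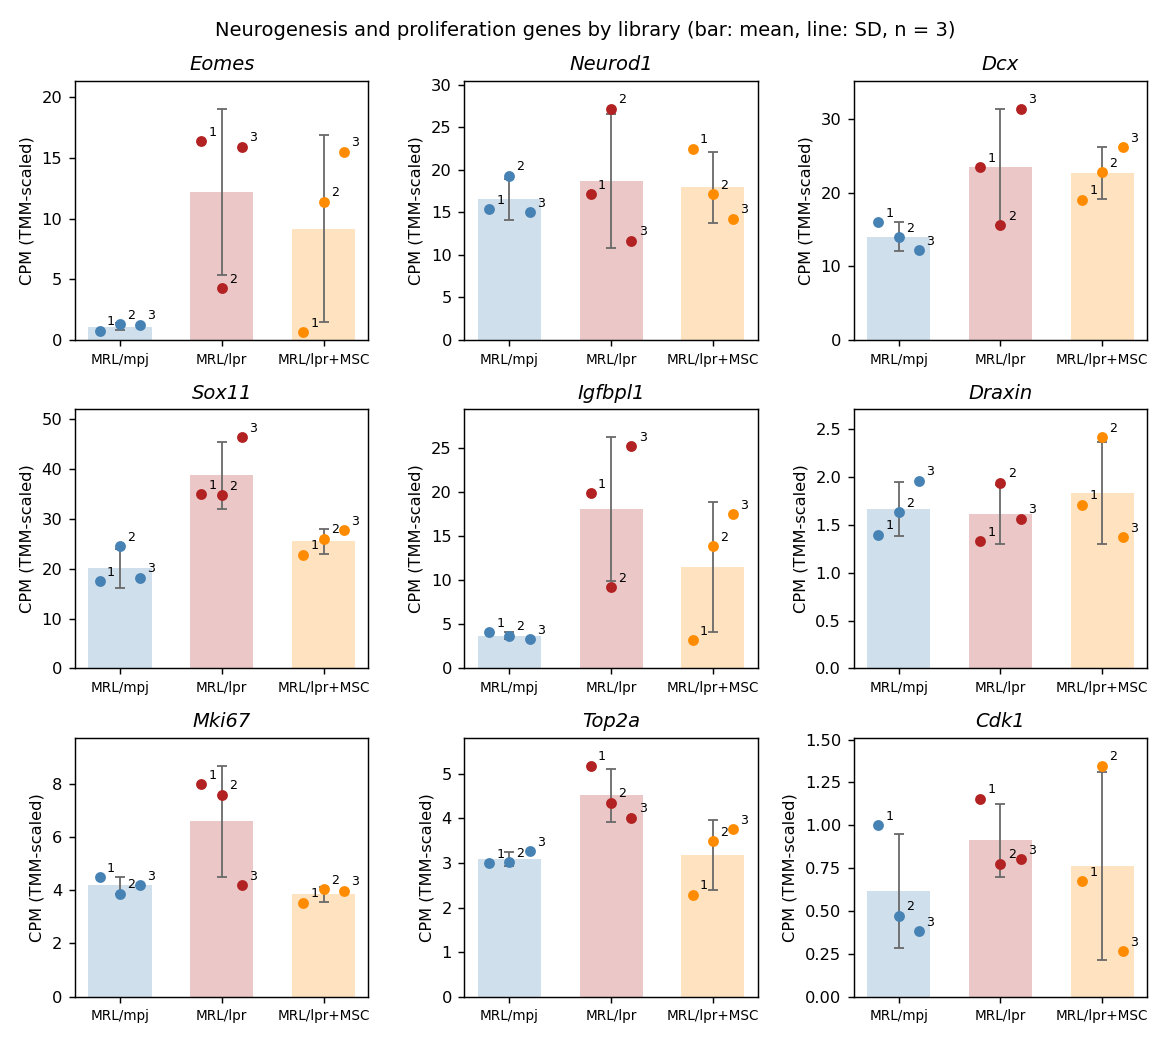
Level of each of the 9 genes in each library, in TMM-scaled CPM (vertical axes start at 0), by group. Points are libraries with their replicate number, bars are means and lines are SD (n = 3); Eomes and Igfbpl1 are high in MRL/lpr 1 and 3 and in MRL/lpr+MSC 2 and 3, while MRL/lpr+MSC 1 stays at the MRL/mpj level.

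The first comparison asked how libraries labelled MRL/lpr differ from those labelled MRL/mpj. Sox11 rose, and was the only one of the 9 genes to pass the threshold (a change of 1.5-fold or more with an adjusted p below 0.05). Over the 16697 genes tested, 5.79% passed it, and 3.41% passed it by rising. An unadjusted p under 0.05 was reached by 5 of the 9 genes (Sox11, Top2a, Eomes, Igfbpl1 and Dcx), and by 30.4% of all genes. Eomes and Igfbpl1 had larger fold changes but differed so much among the MRL/lpr libraries that neither passed. The values of 8 of the 9 genes were positive, as were 52.8% of all genes tested. The median log2 fold change of the 9 genes was 0.65, where the median of all genes tested was 0.02. In 4 genes (Eomes, Igfbpl1, Sox11 and Top2a) every MRL/lpr library lay above every MRL/mpj library, which 19.4% of all genes tested also did. All 9 genes passed the filter on low counts in each comparison.

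Eomes (ENSMUSG00000032446, chr9:118478212-118486132, plus strand) had the widest range. Its level was 0.749, 1.29 and 1.25 CPM in MRL/mpj libraries 1 to 3, and 16.4, 4.27 and 15.9 CPM in MRL/lpr libraries 1 to 3. MRL/lpr 2 was the lowest of its group and still above all MRL/mpj libraries. The log2 fold change was 3.29 ± 0.97 (SE, 9.80-fold, limma voom adjusted p = 0.0790). It passed without MRL/lpr 2 (log2 3.90, limma voom adjusted p = 0.00144), and ran from 2.93 to 3.90 over the 6 fits that each left out a library.

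MRL/lpr+MSC libraries split for Eomes in the same way, at 0.623, 11.4 and 15.5 CPM. The first of these libraries lay below all MRL/mpj libraries and the other 2 lay between MRL/lpr 2 and the 2 higher MRL/lpr libraries. Against MRL/mpj, the log2 fold change was 2.26 ± 1.62 (limma voom adjusted p = 0.463), and without MRL/lpr+MSC 1 it was 3.62 (limma voom adjusted p = 0.00146). Against MRL/lpr, it was -1.03 ± 1.17 with all libraries and 0.32 without MRL/lpr+MSC 1, and neither passed.

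Igfbpl1 (ENSMUSG00000035551, chr4:45809468-45826923, minus strand) was likewise lowest in MRL/lpr 2 and in MRL/lpr+MSC 1 of their groups. MRL/mpj libraries held 4.10, 3.70 and 3.32 CPM, MRL/lpr libraries 19.9, 9.22 and 25.2 CPM, and MRL/lpr+MSC libraries 3.22, 13.8 and 17.5 CPM. MRL/lpr lay above MRL/mpj throughout, and MRL/lpr+MSC 1 lay below all MRL/mpj libraries. The log2 fold change of MRL/lpr over MRL/mpj was 2.18 ± 0.54 (4.54-fold, limma voom adjusted p = 0.0558), and that of MRL/lpr+MSC over MRL/mpj was 1.37 ± 0.74 (limma voom adjusted p = 0.324). Both passed once the low library was left out, at 2.59 without MRL/lpr 2 (limma voom adjusted p = 0.00279) and at 2.08 without MRL/lpr+MSC 1 (limma voom adjusted p = 0.00149).

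Sox11 (ENSMUSG00000063632, chr12:27334264-27342574, minus strand) was the gene that passed. Its level was 17.4, 24.6 and 18.2 CPM in MRL/mpj, 35.0, 34.8 and 46.4 CPM in MRL/lpr, and 22.8, 26.0 and 27.7 CPM in MRL/lpr+MSC libraries. MRL/lpr libraries lay above those of both other groups without overlap, and MRL/lpr+MSC libraries overlapped MRL/mpj. MRL/lpr exceeded MRL/mpj by a log2 fold change of 0.94 ± 0.18 (1.91-fold, limma voom adjusted p = 0.0269). The call held in 8 of 12 other fits and was lost without MRL/lpr 1 or without any of MRL/mpj 1, 2 and 3, where the log2 fold change stayed between 0.84 and 1.10 and the limma voom adjusted p ran from 0.0633 to 0.120.

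Dcx (ENSMUSG00000031285, chrX:143855842-143933311, minus strand) was at 16.0, 13.9 and 12.1 CPM in MRL/mpj, 23.4, 15.6 and 31.4 CPM in MRL/lpr, and 19.0, 22.8 and 26.1 CPM in MRL/lpr+MSC libraries. MRL/lpr 2 fell within the MRL/mpj range, whereas MRL/lpr+MSC libraries lay above MRL/mpj without overlap. The log2 fold change over MRL/mpj was 0.70 in both groups, with a standard error of 0.28 for MRL/lpr (limma voom adjusted p = 0.154) and of 0.16 for MRL/lpr+MSC (limma voom adjusted p = 0.0510). Neither passed. Without MRL/lpr 2 the first became 0.95 (limma voom adjusted p = 0.0168), and without MRL/lpr+MSC 1 the second became 0.81 (limma voom adjusted p = 0.00899).

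Neurod1 (ENSMUSG00000034701, chr2:79452521-79456751, minus strand), the most abundant of the neurogenesis genes, showed another order. Its level was 15.3, 19.3 and 15.0 CPM in MRL/mpj, 17.1, 27.2 and 11.6 CPM in MRL/lpr, and 22.5, 17.1 and 14.2 CPM in MRL/lpr+MSC libraries. The groups overlapped, and the highest library was MRL/lpr 2, in which Eomes, Igfbpl1 and Dcx were lowest of their group. Its log2 fold change was 0.08 ± 0.31 for MRL/lpr and 0.08 ± 0.18 for MRL/lpr+MSC over MRL/mpj (limma voom adjusted p = 0.882 and 0.835). The summed dentate granule cell markers were also highest in MRL/lpr 2, at 783 CPM, but lowest in MRL/lpr+MSC 1, at 327 CPM, where Neurod1 was second highest.

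Draxin (ENSMUSG00000029005, chr4:148098437-148130698, minus strand) was low in all libraries, at 1.40, 1.63 and 1.96 CPM in MRL/mpj, 1.33, 1.94 and 1.56 CPM in MRL/lpr, and 1.71, 2.42 and 1.37 CPM in MRL/lpr+MSC. The groups overlapped, with log2 fold changes of -0.06 ± 0.25 and 0.12 ± 0.28 over MRL/mpj (limma voom adjusted p = 0.898 and 0.843). Mad2l2 lies on the opposite strand over part of Draxin and held up to 328 counts in a library. Since the strand setting of the counting is not stated, the reads of these genes could be mixed.

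Mki67 (ENSMUSG00000031004, chr7:135689784-135716361, minus strand) marks dividing cells in all active phases of the cycle. It was at 4.50, 3.87 and 4.19 CPM in MRL/mpj, 7.98, 7.59 and 4.19 CPM in MRL/lpr, and 3.53, 4.04 and 3.98 CPM in MRL/lpr+MSC libraries. MRL/lpr 1 and 2 were high and MRL/lpr 3 was inside the MRL/mpj range. The log2 fold change of MRL/lpr over MRL/mpj was 0.62 ± 0.29 (limma voom adjusted p = 0.201) and reached 0.91 without MRL/lpr 3 (limma voom adjusted p = 0.0185).

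Top2a (ENSMUSG00000020914, chr11:98992943-99024189, minus strand) untangles DNA in replication and mitosis. Its level was 3.00, 3.01 and 3.27 CPM in MRL/mpj, 5.18, 4.35 and 4.02 CPM in MRL/lpr, and 2.28, 3.48 and 3.76 CPM in MRL/lpr+MSC libraries. MRL/lpr lay above both other groups without overlap, by a log2 fold change of 0.55 ± 0.18 over MRL/mpj (1.47-fold, limma voom adjusted p = 0.0934). Cdk1 (ENSMUSG00000019942, chr10:69335146-69352938, minus strand) rested on 7 to 20 counts in MRL/mpj, 18 to 33 in MRL/lpr and 6 to 29 in MRL/lpr+MSC libraries. Its groups overlapped, with a log2 fold change of 0.65 ± 0.41 for MRL/lpr over MRL/mpj (limma voom adjusted p = 0.324).

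**Figure D2:**
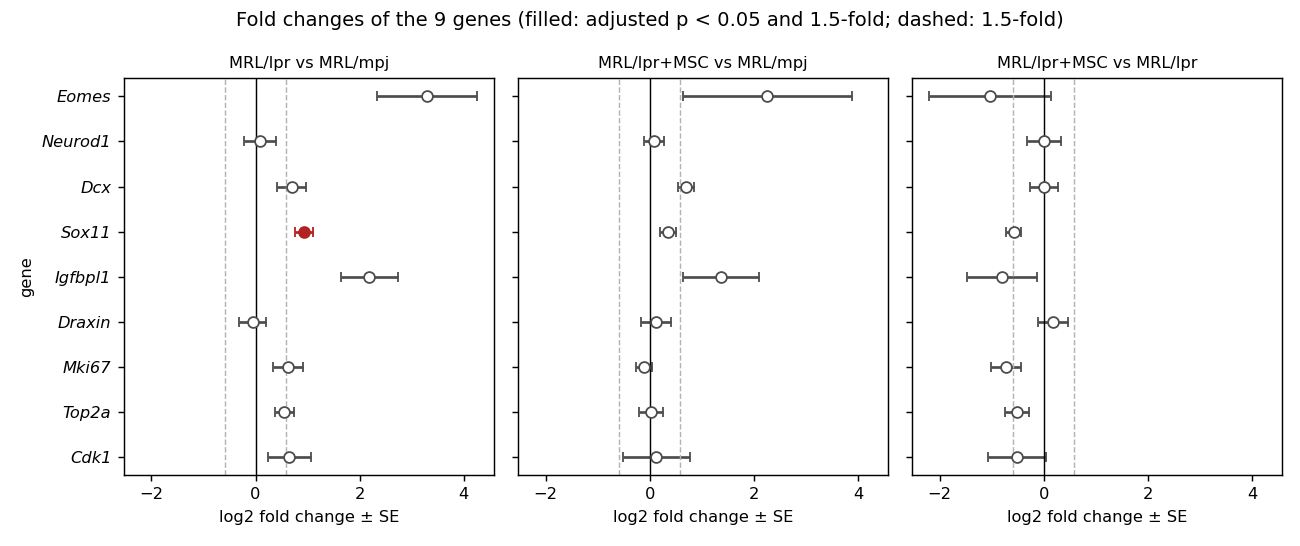
Log2 fold change with its standard error for each gene in the 3 comparisons (horizontal axis), by limma voom on 6 libraries each. Filled points pass the threshold and dashed lines mark 1.5-fold; Sox11 in MRL/lpr against MRL/mpj is the filled point, at 0.94, and Eomes has the widest error bars.

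The second comparison set MRL/lpr+MSC against the same 3 MRL/mpj libraries, so that it shares its controls with the first. None of the 9 genes passed by limma voom, against 3.43% of 16196 genes tested, and 2 (Dcx and Sox11) had an unadjusted p under 0.05, against 22.9% of all genes. With limma-trend, added after the data were seen, Dcx passed (limma-trend adjusted p = 0.0463). Dcx was also the gene in which MRL/lpr+MSC lay above MRL/mpj without overlap, as did 15.2% of all genes. The 3 genes of dividing cells were near the control level, with log2 fold changes of -0.11 ± 0.16 for Mki67, 0.03 ± 0.23 for Top2a and 0.13 ± 0.64 for Cdk1. Sox11 stood at 0.36 ± 0.15 (limma voom adjusted p = 0.214).

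The third comparison set the libraries labelled MRL/lpr+MSC against those labelled MRL/lpr. Since it cannot be told whether these names are exchanged, the sign of a difference is not read as an effect of the treatment. None of the 9 genes passed by limma voom, nor did any of the 16758 genes tested (0%), in this fit or in any other fit tried. An unadjusted p under 0.05 was reached by 2 of the 9 genes, Sox11 and Mki67, and by 3.86% of all genes. Sox11, Mki67 and Top2a were lower in MRL/lpr+MSC without overlap, as were 5.72% of all genes. Their log2 fold changes were -0.58 ± 0.15, -0.73 ± 0.29 and -0.52 ± 0.23, each with a limma voom adjusted p of 0.921. Dcx and Neurod1 had log2 fold changes of 0.0036 ± 0.27 and 0.00083 ± 0.32, and Igfbpl1 one of -0.80 ± 0.67.

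**Figure D3:**
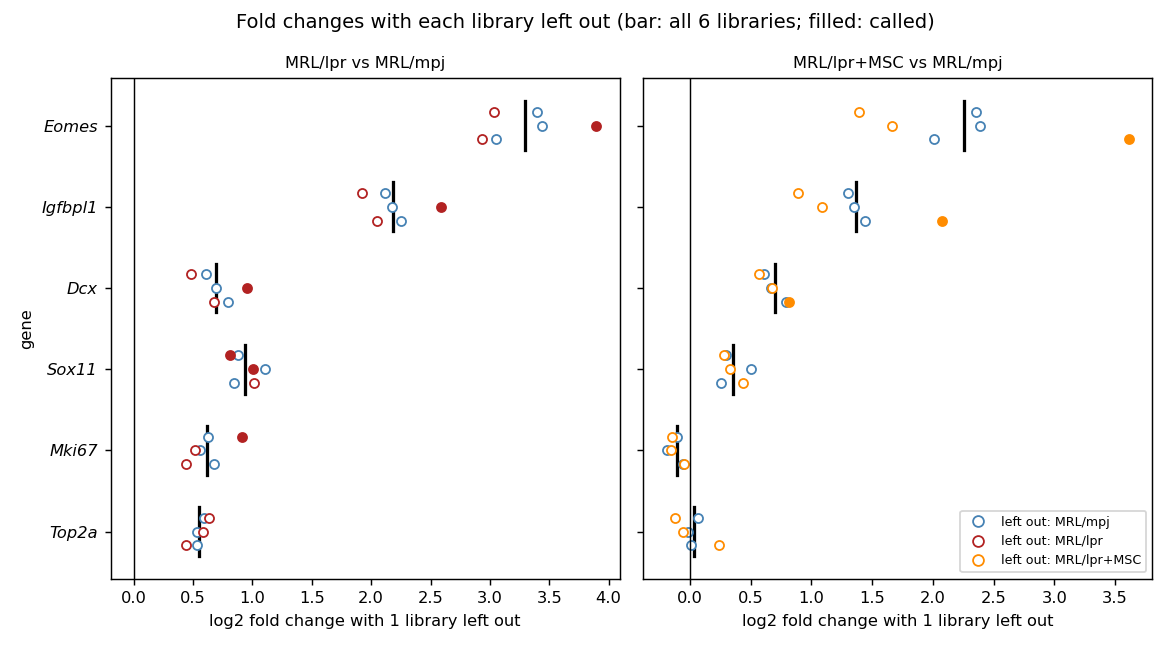
Log2 fold change over MRL/mpj of 6 genes when each library is left out in turn (horizontal axis). Colours name the group of the library left out, filled points pass the threshold and bars give the value with all 6 libraries; Eomes, Igfbpl1 and Dcx pass when MRL/lpr 2 or MRL/lpr+MSC 1 is left out.

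Genes of the same stages, listed apart from the 9, were read in the same fits. Of 10 genes of neural stem and radial glia-like cells, 3 rose in MRL/lpr and none fell, where 3.41% of all genes tested rose. The list median was 0.24 on the log2 scale, and 7 of the 10 were positive. Nes, of this list and chosen after its values were seen, stood at -0.48 ± 0.40 in MRL/lpr and -0.50 ± 0.40 in MRL/lpr+MSC and did not pass. Sox2, a factor that keeps stem cells undifferentiated and is also made by astrocytes, was at 30.5, 34.3 and 29.7 CPM in MRL/mpj, 85.7, 50.3 and 96.7 CPM in MRL/lpr, and 68.1, 71.3 and 79.9 CPM in MRL/lpr+MSC libraries. It exceeded MRL/mpj without overlap in both groups, by 1.25 ± 0.26 (limma voom adjusted p = 0.0380) and 1.21 ± 0.09 (limma voom adjusted p = 0.00136). Fabp7, a fatty acid-binding protein of radial glia, rose by 0.97 ± 0.19 in MRL/lpr and 1.11 ± 0.14 in MRL/lpr+MSC (limma voom adjusted p = 0.0329 and 0.00876).

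Hes5, a target of Notch signalling, rose in MRL/lpr from a range of 0.926 to 2.58 CPM to one of 4.40 to 6.72 CPM (log2 2.01 ± 0.39, limma voom adjusted p = 0.0291). Id4, the most abundant gene of the list, was at 67.5 to 81.8 CPM in MRL/mpj and 65.1 to 100.7 CPM in MRL/lpr, and did not pass. Of 5 other genes of intermediate progenitors, 0 passed by limma voom in either comparison with MRL/mpj. Insm1, a zinc finger factor of these progenitors, was at 4.80 to 7.08 CPM in MRL/mpj and 5.04 to 10.5 CPM in MRL/lpr, and did not pass.

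Of 12 other genes of immature neurons, 1 rose in MRL/lpr and 3 in MRL/lpr+MSC, and none fell. Over all genes tested, 3.41% rose in MRL/lpr, and 3.43% passed in either direction in MRL/lpr+MSC. Of the 12, 8 were positive in MRL/lpr and 9 in MRL/lpr+MSC. Tubb2b, a tubulin of this list chosen after its values were seen, was lower without overlap in both groups and did not pass. Its level was 157 to 174 CPM in MRL/mpj, 132 to 155 CPM in MRL/lpr and 138 to 155 CPM in MRL/lpr+MSC. Stmn1, a protein that destabilises microtubules, was at 111, 99.9 and 105 CPM in MRL/mpj, 186, 147 and 179 CPM in MRL/lpr, and 198.1, 199.8 and 181.8 CPM in MRL/lpr+MSC libraries. It rose in both, by 0.69 ± 0.10 and 0.88 ± 0.07 (limma voom adjusted p = 0.0148 and 0.00179). Calb2 (calretinin) was at 6.11 to 10.4 CPM in MRL/mpj, 94.3, 29.3 and 119.8 CPM in MRL/lpr, and 32.0, 69.5 and 103.8 CPM in MRL/lpr+MSC libraries. It was lowest of its group in MRL/lpr 2 and in MRL/lpr+MSC 1, as were Eomes and Igfbpl1. Which cells made Calb2 was not tested. Its log2 fold change was 3.23 ± 0.83 in MRL/lpr (limma voom adjusted p = 0.0605) and 3.06 ± 0.63 in MRL/lpr+MSC, where it passed (limma voom adjusted p = 0.0472).

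Nnat, a small membrane protein of developing neurons, passed in MRL/lpr+MSC (1.44 ± 0.26, limma voom adjusted p = 0.0304) and stood at 1.29 ± 0.31 in MRL/lpr (limma voom adjusted p = 0.0518). Tubb3, a neuronal tubulin, overlapped between the groups at 166 to 255 CPM over all libraries. Of 4 relatives of Dcx, 0 passed. Dclk1, the most abundant of them, was lower in MRL/lpr without overlap (539 to 620 CPM against 695 to 764 CPM in MRL/mpj), with a log2 fold change of -0.32 ± 0.08 that is under 1.5-fold (limma voom adjusted p = 0.0489). Dclk2 was likewise lower, at 88.3 to 96.0 CPM against 116 to 129 CPM.

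Of 16 genes of DNA replication, 0 passed in either comparison with MRL/mpj by limma voom, and the list medians were 0.21 and 0.10. Pcna, the replication clamp, was at 29.8 to 31.7 CPM in MRL/mpj and 25.6 to 29.4 CPM in MRL/lpr. Mcm6, part of the replicative helicase, was at 11.4 to 17.8 CPM and 20.6 to 37.7 CPM (log2 0.84 ± 0.28, limma voom adjusted p = 0.106). Of 25 genes of G2 and mitosis, 24 were tested in MRL/lpr against MRL/mpj. Of these, 2 rose and 1 fell, where 5.79% of all genes tested passed. The list median was 0.58, and 19 were positive, where 52.8% of all genes tested were. In MRL/lpr+MSC against MRL/mpj, 22 were tested, 0 rose and 1 fell, with a median of 0.09.

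Bub1b, a kinase of the spindle checkpoint, was at 0.699, 0.258 and 0.926 CPM in MRL/mpj, 5.14, 4.22 and 3.00 CPM in MRL/lpr, and 1.76, 3.35 and 4.03 CPM in MRL/lpr+MSC libraries. It rose in MRL/lpr by 2.87 ± 0.48 (limma voom adjusted p = 0.0203) and stood at 2.40 ± 0.55 in MRL/lpr+MSC (limma voom adjusted p = 0.0534). Kif11, a spindle motor, rose in MRL/lpr by 1.06 ± 0.24 (limma voom adjusted p = 0.0422). Prc1, which bundles microtubules of the central spindle, fell in both groups, with log2 fold changes of -1.30 ± 0.28 and -1.87 ± 0.32 (limma voom adjusted p = 0.0376 and 0.0245), from 2.62 to 3.50 CPM in MRL/mpj to 1.01 to 1.75 CPM in MRL/lpr and 0.519 to 1.11 CPM in MRL/lpr+MSC.

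Racgap1 and Nusap1, the most abundant of the mitotic list, had log2 fold changes of 0.40 ± 0.23 and 0.60 ± 0.22 in MRL/lpr and did not pass. Of 7 CDK inhibitors, 6 were tested and 0 passed by limma voom in either comparison with MRL/mpj. Cdkn1b was at 69.6 to 73.8 CPM in MRL/mpj and 71.6 to 76.7 CPM in MRL/lpr, and Cdkn2d at 47.1 to 54.5 and 39.6 to 43.2 CPM. Of 16 signals of the neurogenic niche, 15 were tested and Wnt7a, a Wnt ligand, passed in MRL/lpr+MSC (1.03 ± 0.12, limma voom adjusted p = 0.00685), with 0.72 ± 0.18 in MRL/lpr (limma voom adjusted p = 0.0540). Dkk3 was at 466 to 634 CPM in MRL/mpj and 190 to 338 CPM in MRL/lpr (log2 -0.92 ± 0.25, limma voom adjusted p = 0.0668). Igf2 reached 555 CPM in MRL/lpr 2 and 392 CPM in MRL/lpr+MSC 2, against 39.1 to 163 CPM elsewhere.

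The 7 genes of these lists that passed in MRL/lpr against MRL/mpj all lost their call without MRL/lpr 1 or without any 1 of the MRL/mpj libraries, and 5 to 6 of them kept it without MRL/lpr 2 or 3. With all libraries in, Hes5 and Kif11 lost it under the replicate block, and Sox2 and Kif11 with no filter on low counts. Of the 7 that passed in MRL/lpr+MSC, Sox2 and Stmn1 kept their call in all 6 fits that left out a library. With all libraries in, Prc1 lost it under the replicate block, Nnat with no filter and in 1 fit of all 9 libraries, and Calb2 in both of these and under the stricter filter.

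**Figure D4:**
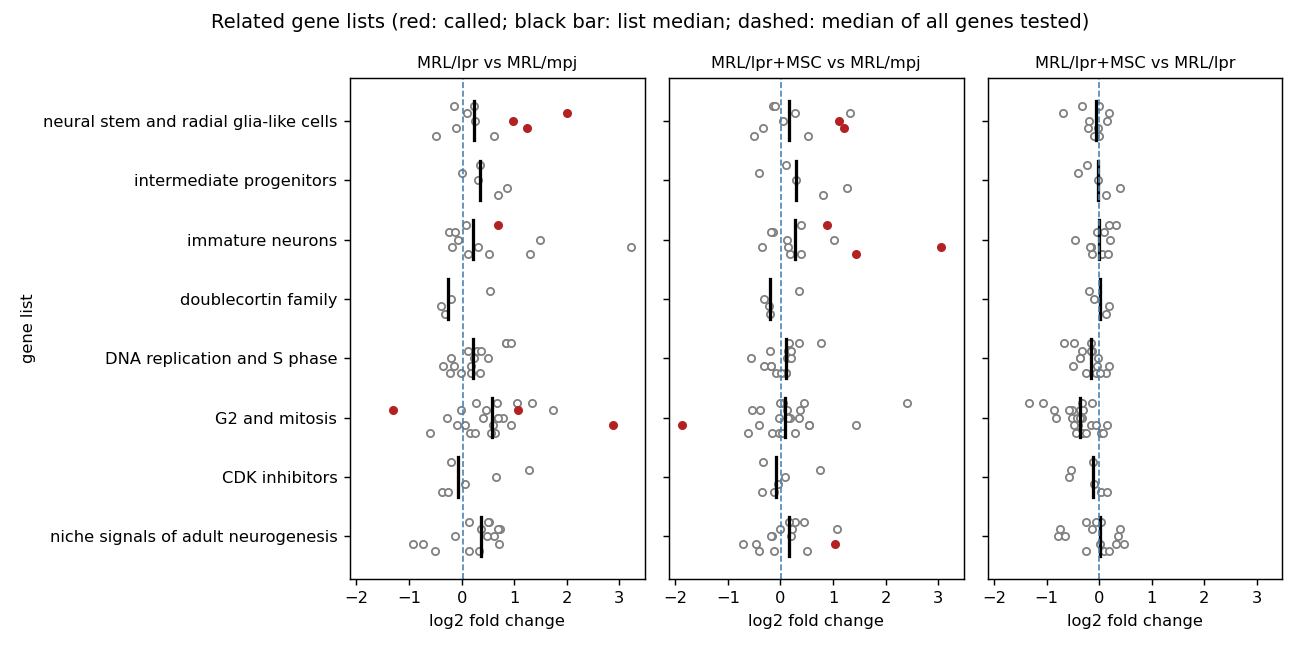
Log2 fold changes (horizontal axis) of the genes tested in 8 related lists, in the 3 comparisons. Red points pass the threshold, black bars are list medians and the dashed line is the median of all genes tested; the mitotic list has a median of 0.58 in MRL/lpr against MRL/mpj and of 0.09 in MRL/lpr+MSC against MRL/mpj.

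Markers of cells from outside the dentate gyrus were read across libraries. The neuroblast and thalamic sums were high where Eomes and Igfbpl1 were highest, while ependymal and choroid plexus sums had another order. The summed level of 6 markers of ventricular zone and olfactory neuroblasts (Dlx1, Dlx2, Dlx5, Dlx6, Sp8 and Sp9) was 42.4 to 49.0 CPM in MRL/mpj, 115, 35.6 and 209 CPM in MRL/lpr, and 43.7, 103 and 157 CPM in MRL/lpr+MSC libraries. It was thus high in the 4 libraries in which Eomes and Igfbpl1 were highest and at or below the MRL/mpj range in MRL/lpr 2, where Eomes and Igfbpl1 were still above it. Of these 6 genes, 0 passed by limma voom in either comparison with MRL/mpj. No gene of the list was at 0 in any group.

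The summed level of 6 thalamic neuron markers was high in the same 4 libraries, at 124 to 165 CPM in MRL/mpj, 424, 207 and 605 CPM in MRL/lpr, and 93.5, 330 and 508 CPM in MRL/lpr+MSC libraries. Zic1, the most abundant of them, went from 14.9 to 30.6 CPM in MRL/mpj to 206, 62.4 and 349 CPM in MRL/lpr and 11.1, 155 and 253 CPM in MRL/lpr+MSC. Not all members did so: Lhx9 was at 11.4 to 12.3 CPM in MRL/mpj, 19.5, 26.6 and 8.97 CPM in MRL/lpr and 39.9, 16.6 and 15.9 CPM in MRL/lpr+MSC. Lef1 lay between 4.58 and 7.32 CPM in all libraries, and Tcf7l2 between 5.42 and 7.44 CPM in all but MRL/lpr+MSC 3, at 14.1 CPM. The 4 ependymal markers summed to 17.9 to 21.5 CPM in MRL/mpj, 154, 66.6 and 53.5 CPM in MRL/lpr, and 29.5, 96.9 and 61.4 CPM in MRL/lpr+MSC libraries. Of the 4, Rsph1 passed in MRL/lpr (log2 1.57 ± 0.36, limma voom adjusted p = 0.0475). Choroid plexus markers (8 genes) were highest in MRL/lpr 2 at 9692 CPM and in MRL/lpr+MSC 2 at 4876 CPM, against 100.3 to 1079 CPM in the other libraries. Their part in the values of Eomes, Igfbpl1, Dcx and Sox11 was not tested.

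Markers of other neurons were read beside these. The 4 markers of Cajal-Retzius cells summed to 69.1 to 78.2 CPM in MRL/mpj and 54.4 to 76.9 CPM in MRL/lpr, and 0 of them passed by limma voom. Reln, at 55.7 to 65.9 CPM in MRL/mpj and 38.1 to 64.9 CPM in MRL/lpr, made up most of this sum. Trp73 was at 10.7 to 12.1 CPM in MRL/mpj, 13.4, 14.2 and 5.08 CPM in MRL/lpr, and 3.63, 10.3 and 7.65 CPM in MRL/lpr+MSC. It was lowest of its group in MRL/lpr 3, where Eomes was high. The 2 least abundant, Lhx1 and Lhx5, were high in the same libraries as Eomes. Lhx1 was at 0.749 to 0.872 CPM in MRL/mpj, 3.60, 1.21 and 3.47 CPM in MRL/lpr, and 0.0519, 2.32 and 3.01 CPM in MRL/lpr+MSC libraries. Lhx5 was at 0.250 to 0.490 CPM, then 2.31, 0.948 and 3.47 CPM, and 0.0519, 1.67 and 3.19 CPM. In MRL/lpr+MSC 1, both genes lay under the level of 3 counts, which was 0.156 CPM there. Striatal markers (8 genes) summed to 163 to 183 CPM in MRL/mpj, 195 to 241 CPM in MRL/lpr and 181 to 285 CPM in MRL/lpr+MSC. In MRL/lpr, 7 of the 8 were positive, and Rgs9 passed the threshold (log2 0.96 ± 0.19, limma voom adjusted p = 0.0310). Pde10a, the most abundant, was at 89.8 to 104 CPM in MRL/mpj and 63.6 to 94.0 CPM in MRL/lpr. CA pyramidal markers were lower in MRL/lpr, where Fibcd1 and Spink8 fell (log2 -1.11 ± 0.11 and -0.74 ± 0.12, limma voom adjusted p = 0.00370 and 0.0184) and the sum was 713 to 895 CPM against 1082 to 1299 CPM in MRL/mpj. In MRL/lpr+MSC the CA pyramidal sum was 772 to 1050 CPM, and Fibcd1 passed there as lower. Of the 7 dentate granule markers, 0 passed by limma voom.

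Lymphocyte markers were read beside the genes of dividing cells. The 7 T and B cell markers summed to 25.9, 11.5 and 10.8 CPM in MRL/mpj, 52.8, 36.5 and 22.3 CPM in MRL/lpr, and 13.0, 13.5 and 18.2 CPM in MRL/lpr+MSC libraries. Ighm alone held 21.2 CPM of this sum in MRL/mpj 1 and 11.0 CPM in MRL/lpr 3. Top2a had the order of the sum within MRL/lpr and within MRL/lpr+MSC, and the reverse order within MRL/mpj. Mki67 was high in MRL/lpr 1 and 2. Cdk1 did not follow the sum, with its highest level in MRL/lpr+MSC 2 (1.35 CPM) and its lowest in MRL/lpr+MSC 3 (0.265 CPM). Ptprc (CD45) was at 3.70 to 4.26 CPM in MRL/mpj, 22.4, 17.5 and 7.82 CPM in MRL/lpr and 3.32 to 6.33 CPM in MRL/lpr+MSC. Cd3g, part of the T cell receptor complex, was at 0 counts in all 3 MRL/mpj libraries and at 2.94, 1.85 and 0.804 CPM in MRL/lpr.

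The 7 markers of NK and cytotoxic T cells, which also make Eomes, summed to 0.381 to 0.774 CPM in MRL/mpj, 6.51, 3.19 and 1.73 CPM in MRL/lpr, and 0.727, 0.325 and 1.24 CPM in MRL/lpr+MSC libraries. Eomes and this sum were both highest in MRL/lpr 1, at 16.4 and 6.51 CPM. In MRL/lpr 3 and in MRL/lpr+MSC 2 and 3, Eomes was at 11.4 to 15.9 CPM while this sum was at most 1.73 CPM. Gzmb and Ncr1 were at 0 in all MRL/mpj libraries. Microglial markers (6 genes) summed to 315 to 352 CPM in MRL/mpj and 267 to 364 CPM in MRL/lpr, and oligodendrocyte progenitor markers (5 genes), cells that divide in the adult brain, to 173 to 186 and 155 to 225 CPM, with 0 genes of either list passing by limma voom. The part of lymphocytes in the values of Eomes, Mki67, Top2a and Cdk1 was not tested.

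**Figure D5:**
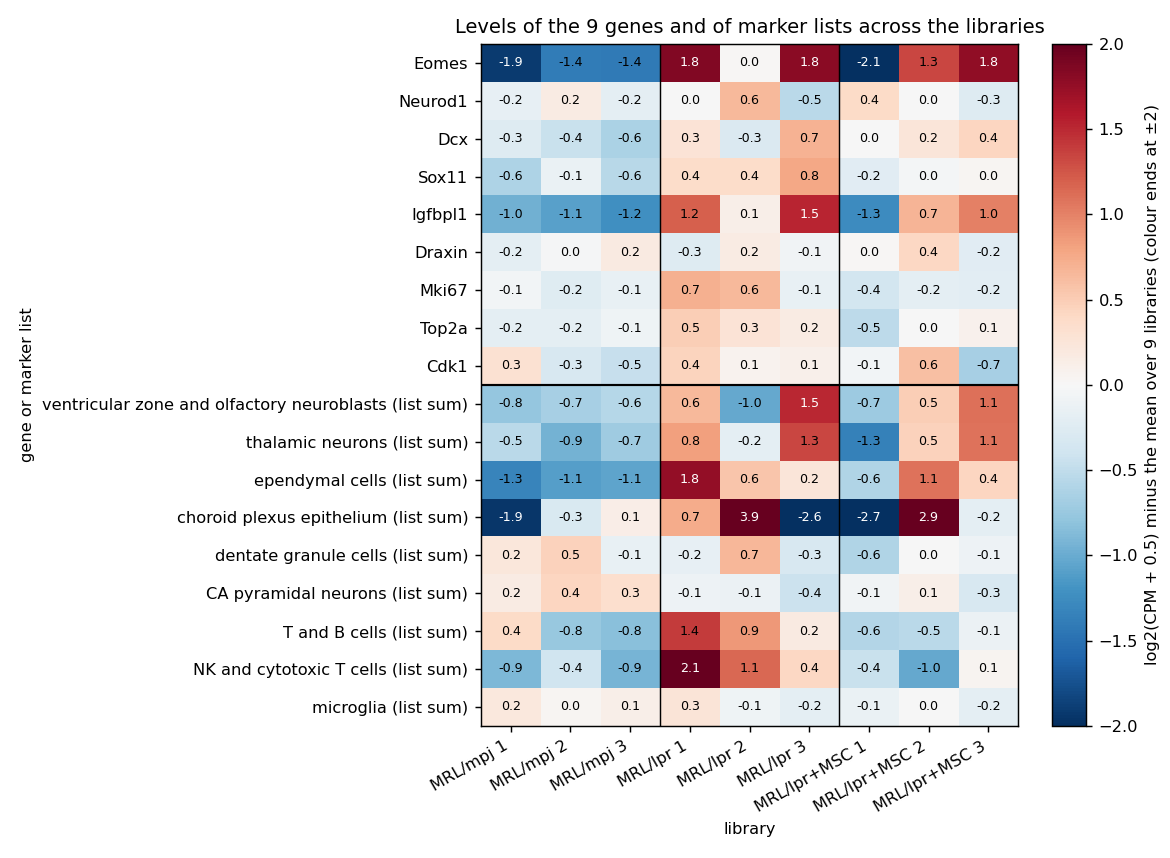
Level in each library (columns) of the 9 genes and of the summed CPM of 9 marker lists (rows), as log2(CPM + 0.5) minus the mean over the 9 libraries; printed values give the difference and colour ends at ±2. Eomes and Igfbpl1 are high in the libraries where the thalamic and neuroblast lists are high, and Mki67 is high in MRL/lpr 1 and 2, where the T and B cell list is highest.

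Likeness was measured as the root mean square difference between gene-centred log2(CPM + 0.5) profiles over the 9 libraries, among 14947 genes whose mean level reached 1 CPM. The mean profile of Mki67, Top2a and Cdk1 was nearest to those of Pld4 (0.102), Lbr (0.105) and Atf1 (0.107). The mean profile of Dcx, Sox11, Igfbpl1 and Draxin was nearest to Gm13111 (0.0920), Mmp15 (0.100) and Ptgfrn (0.109). Mmp15, a membrane metalloproteinase, was at 27.8 to 29.4 CPM in MRL/mpj, 45.8, 43.8 and 57.8 CPM in MRL/lpr, and 30.9, 48.4 and 52.0 CPM in MRL/lpr+MSC libraries. For single genes, chosen after their values were seen, Eomes was nearest to Sln (0.145), Igfbpl1 to Zic2 (0.174), Dcx to Ednrb (0.0981), and Neurod1 to Rasl10a (0.0800). These likenesses describe 9 libraries in 3 groups and carry no test.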

How the data were processed

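Poly-A RNA of 1 hippocampal sample per library was sequenced in 9 libraries. The authors aligned reads (STAR per the paper, TopHat2 per the labels) to GRCm38 and used HTSeq to count them by gene. The deposited matrix is labelled as raw counts by gene. The authors also deposited FPKM values, which divide counts by gene length and library size, 1 table per library. All 9 tables followed their own count column. FPKM values served here only for levels between genes and for Fas.

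Groups came from the labels. Counts were scaled by TMM (trims of 30% and 5%). Genes with 10 counts, scaled to a library of median size, in at least 3 libraries and 15 counts in total were tested by limma voom with robust variance estimates (R 4.3.3, limma 3.58.1, statmod 1.5.0), on the 6 libraries of each comparison. P-values were adjusted by Benjamini-Hochberg across every tested gene. A gene was called when it changed 1.5-fold or more with an adjusted p below 0.05. A quasi-likelihood count test had been planned. It was not run because the separator of the matrix kept its values from being registered as counts, and voom, the planned fallback, replaced it. The authors used DESeq2 after voom normalization, which was not run for the same reason.

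The 9 genes and all lists were chosen with earlier results of these data known. Named genes are the 9 genes, Fas, called genes of each pathway list (up to 5 per comparison) and marker list (up to 3), the 2 most abundant of each list, and the 3 nearest profiles. Only some of the marker genes are printed, of which Lhx1, Lhx5, Lhx9, Lef1 and Tcf7l2 were chosen after their values were seen. A gene that this rule picked is not reported here. Symbols came from GENCODE and matched 47224 of 47643 genes. Promoters came from RefSeq. Per the paper, each MRL/mpj and MRL/lpr column of its heat maps is a separate mouse. Columns named MRL/lpr in the table that accompanies the study followed libraries labelled MRL/lpr+MSC. Whether the statement covers libraries labelled MRL/lpr, MRL/lpr+MSC or both is thus not settled. P-values weigh a difference between groups against the spread between libraries. Alternatives were other size factors, filters, all 9 libraries in 1 fit, the replicate number as a block, each library left out in turn and, added after the data were seen, limma-trend.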

Additional observations from a re-analysis of the deposited data

How the results depend on the processing

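The call of Sox11 held under median-of-ratios size factors, under both other filters, in 1 fit of all 9 libraries, with the replicate block and with limma-trend, and was lost in 4 of 6 fits that left out a library. The number of the 9 genes called in MRL/lpr against MRL/mpj ran from 0 to 4 when a library was left out, and was 3 with the replicate block and 3 with limma-trend, which added Eomes and Igfbpl1. In MRL/lpr+MSC against MRL/mpj it ran from 0 to 3 and was 1 with limma-trend. Over all genes, calls in MRL/lpr against MRL/mpj ran from 135 (without MRL/mpj 3) to 1483 (without MRL/lpr 2) around 967, and in MRL/lpr+MSC against MRL/mpj from 158 to 1346 (without MRL/lpr+MSC 1) around 556, with 280 under the replicate block. In MRL/lpr+MSC against MRL/lpr no fit called a gene. The cause of these moves was not tested.

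Deviations of same-numbered libraries from their group means correlated at -0.02, 0.13 and 0.05 between MRL/lpr and MRL/mpj. The values were -0.06, 0.13 and 0.22 between MRL/lpr+MSC and MRL/mpj, and -0.21, 0.25 and 0.40 between MRL/lpr+MSC and MRL/lpr. Not every library was nearest to its own number. With 3 libraries per group, these values cannot tell whether replicate numbers pair the libraries. Signs turned only where the fold change was small against its error. In MRL/lpr+MSC against MRL/lpr, Neurod1 (0.00083) was -0.0046 with no filter, -0.0025 with the stricter filter, -0.0014 with 9 libraries in 1 fit and -0.026 with the replicate block, and Dcx (0.0036) was -0.0043 with no filter, -0.0016 with 9 libraries in 1 fit, -0.033 with the replicate block and -0.0017 with limma-trend. Over fits that left out a library, MRL/lpr against MRL/mpj ran from -0.20 to 0.36 for Neurod1 and -0.19 to 0.089 for Draxin. MRL/lpr+MSC against MRL/mpj ran from -0.079 to 0.22 for Neurod1, -0.12 to 0.30 for Draxin, -0.12 to 0.24 for Top2a and -0.12 to 0.74 for Cdk1. MRL/lpr+MSC against MRL/lpr ran from -1.90 to 0.32 for Eomes, -0.27 to 0.28 for Neurod1, -0.26 to 0.23 for Dcx, -0.042 to 0.37 for Draxin and -1.06 to 0.10 for Cdk1. The planned fits with a quasi-likelihood test and with DESeq2 were not run. Counts of 6 to 33 limit Cdk1, which dropped out under the stricter filter.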

Other observations

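Nuf2, a kinetochore gene of the mitotic list that the naming rule did not pick, was chosen after its values were seen. It was at 1.35, 0.946 and 1.42 CPM in MRL/mpj, 7.03, 2.89 and 3.00 CPM in MRL/lpr, and 2.23, 4.93 and 3.10 CPM in MRL/lpr+MSC libraries, so that both other groups lay above MRL/mpj without overlap, unlike Mki67. The neuronal surface gene Cd24a, chosen in the same way, was at 8.44 to 8.77 CPM in MRL/mpj, 16.6 to 38.4 CPM in MRL/lpr and 10.4 to 22.0 CPM in MRL/lpr+MSC. Sln, the nearest profile to Eomes, was at 0.550 to 0.926 CPM in MRL/mpj, 10.8, 3.23 and 11.0 CPM in MRL/lpr, and 0.260, 7.48 and 10.1 CPM in MRL/lpr+MSC libraries.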
